A study of Homo sapiens with 6 samples.

Results

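The genes described here were 10 enzymes of prostaglandin and leukotriene metabolism, taken by gene symbol from the tables of A549-TIPARP cells and A549-GFP cells. They were the phospholipases PLA2G4A and PLA2G6, the cyclooxygenases PTGS1 and PTGS2, the terminal synthases PTGES, PTGES2 and PTGIS, the leukotriene enzymes ALOX5 and LTA4H, and the prostaglandin-inactivating enzyme HPGD. All 10 were among the 53826 entries of the tables, and 7 were among the 13181 entries that had more than 2 TPM in at least 1 library and were analysed. TPM is the abundance of the transcripts of a gene relative to all transcripts of its library, corrected for transcript length. PTGS1, PTGIS and ALOX5 were listed at 0 on the log2 scale in all 6 libraries. That is the floor of the tables, where every TPM below 1 is set to 1, so no fold change was computed for them.

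The parent of both lines was A549, established from a human lung adenocarcinoma. A549-TIPARP cells stably overexpressed TIPARP, an ADP-ribosyltransferase, from a pMXs retroviral vector, and A549-GFP cells stably overexpressed GFP from the same vector as the control. How transduced cells were selected, and whether each line was a clone or a pool, is not given in the sources used here. RNA was sequenced in 3 libraries per line, numbered by experiment, and values of the libraries of a line are given below in the order of replicates 1, 2 and 3. Nothing states that these came from separate transductions, so the tests measure the spread between these libraries, which may be technical.

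Phospholipase A2 enzymes free arachidonic acid from membrane lipids, and the cyclooxygenases turn it into prostaglandin H2. Terminal synthases then make the individual prostanoids, among them prostaglandin E2 from PTGES and PTGES2, while HPGD, hydroxyprostaglandin dehydrogenase, inactivates it. On the other branch ALOX5 makes leukotriene A4, which LTA4H hydrolyses to leukotriene B4. PTGS2 and PTGES are the inducible enzymes of the prostaglandin E2 route and are known to respond to inflammatory signals in epithelial and tumor cells.

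TIPARP had from 3.68 to 11.4 TPM in the A549-GFP libraries and from 90.5 to 131 TPM in the A549-TIPARP libraries (limma adjusted p = 0.0125). The epithelial markers EPCAM, KRT7, KRT8, KRT18 and CDH1 had at least 61.0 TPM in each of the 6 libraries. KRT19 had 2.54 to 5.36 TPM in A549-GFP cells and 10.9 to 19.2 TPM in A549-TIPARP cells, a log2 difference of 2.00 (limma adjusted p = 0.283), and was the 1 marker past 2-fold with all libraries. Together the 6 epithelial markers had 10774 to 23392 TPM in A549-GFP cells, lowest in replicate 2, and 18544 to 22190 TPM in A549-TIPARP cells. Of 20 markers of fibroblasts, endothelial cells, leukocytes, mast cells and platelets, 15 were at 0 in all libraries. CD68 was the highest of the others, with up to 68.1 TPM, in A549-GFP replicate 2, and PTPRC and PECAM1 were among those at 0. CD14 had at most 5.63 TPM, with a log2 difference of 0.80 that was 1.49 with A549-GFP replicate 2 left out. A549-GFP replicate 2 stood apart from the other libraries. Its values deviated from the mean of its line by 0.621 (root mean square over genes, log2 scale), against 0.185 to 0.40 for the other 5 libraries. It had the highest value of the 6 libraries for 52% of the analysed genes, so values are given with and without it. The tables hold no read counts, and the depth of the libraries is unknown.

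In A549-TIPARP cells PTGS2, PTGES and PLA2G4A had lower TPM than in A549-GFP cells and HPGD had higher TPM, and for each of these 4 genes no library of one line overlapped the other. PTGS2 was 2.59-fold lower, PTGES 2.02-fold lower and PLA2G4A 1.57-fold lower, and HPGD was 1.55-fold higher. Without A549-GFP replicate 2 PTGS2 was 1.62-fold, PTGES 1.48-fold and PLA2G4A 1.42-fold lower and HPGD 1.84-fold higher, so that no enzyme was past 2-fold. Past 1.5-fold were 3 enzymes lower and 1 higher with all libraries, beside 3.02% and 5.7% of all analysed genes. Without A549-GFP replicate 2 they were 1 lower, PTGS2, and 2 higher, HPGD and PLA2G6, beside 2.53% and 9.2% of all genes. PLA2G6, PTGES2 and LTA4H overlapped between the lines. In RNA of a whole culture, fewer cells that express a gene and less of its RNA per cell cannot be told apart. None of the 7 enzymes passed limma at an adjusted p-value under 0.05, which 0.0152% of the 13181 genes did. The 4 enzymes without overlap were also the 4 with an unadjusted p-value under 0.05. Of all analysed genes 3.85% had one, 0.88% lower and 2.97% higher in A549-TIPARP cells, and 8.91% had no overlap, 3.54% lower and 5.36% higher. Without A549-TIPARP replicate 1, and likewise without replicate 3, PLA2G4A was the 1 enzyme with an unadjusted p-value under 0.05. Without A549-GFP replicate 2 the 4 enzymes still had one, which 10.5% of all genes then did, and 5 enzymes had no overlap, against 27.7% of all genes. With 3 libraries against 3, an exact permutation test of a single gene (two-sided) cannot go below p = 0.1, so it was not used.

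**Figure D1:**
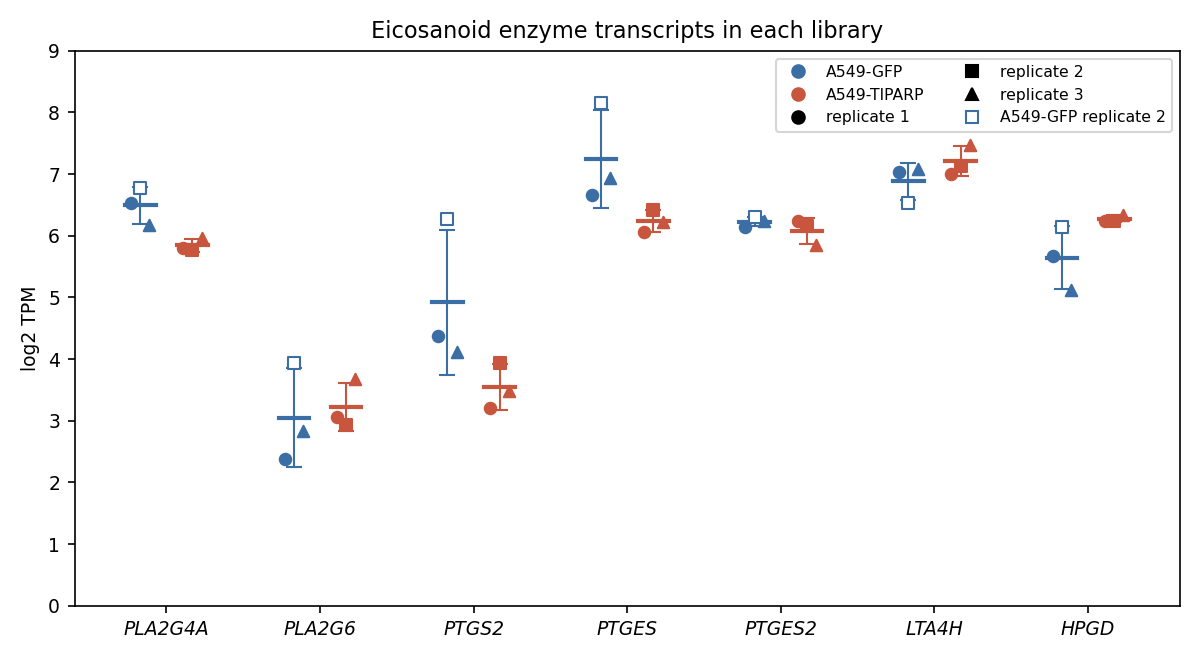
The log2 TPM of the 7 analysed enzymes in each library, with A549-GFP in blue and A549-TIPARP in red. Points are libraries, bars are the mean of a line and whiskers its SD (n = 3), and the open square is A549-GFP replicate 2, which is the highest library for PTGS2 and PTGES.

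The sequences before the transcription starts of these 4 genes are shown because they are the members whose libraries separated between the lines. They are the 250 bases before the RefSeq start on GRCh38.p14 that coincides with the start of the canonical GENCODE 44 transcript, on the strand of the gene. Capitals mark matches, on either strand, to 7 motifs that were searched in all promoters. These were the TATA box, the C/EBP core, a short part of the cAMP response element, the EGR1 motif, the core of the AHR response element, the GC box and the kappaB motif. TIPARP is itself known as a target gene and a repressor of AHR, and C/EBP and NF-kappaB factors are known regulators of PTGS2.
PTGS2, chr1:186680424-186680673, minus strand: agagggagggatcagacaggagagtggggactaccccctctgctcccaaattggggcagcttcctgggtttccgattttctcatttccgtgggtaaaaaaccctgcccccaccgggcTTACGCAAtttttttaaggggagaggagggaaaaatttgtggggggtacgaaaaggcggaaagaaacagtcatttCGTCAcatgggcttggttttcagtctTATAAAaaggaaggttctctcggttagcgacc
PTGES, chr9:129753043-129753292, minus strand: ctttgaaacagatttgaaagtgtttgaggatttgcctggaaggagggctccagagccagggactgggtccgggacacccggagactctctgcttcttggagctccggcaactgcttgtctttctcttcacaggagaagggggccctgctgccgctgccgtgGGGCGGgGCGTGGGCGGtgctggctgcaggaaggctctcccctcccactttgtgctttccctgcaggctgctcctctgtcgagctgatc
PLA2G4A, chr1:186828699-186828948, plus strand: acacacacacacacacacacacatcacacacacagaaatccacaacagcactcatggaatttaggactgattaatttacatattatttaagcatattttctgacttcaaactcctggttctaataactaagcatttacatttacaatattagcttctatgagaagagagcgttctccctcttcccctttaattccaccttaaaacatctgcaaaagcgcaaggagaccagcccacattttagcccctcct
HPGD, chr4:174522489-174522738, minus strand: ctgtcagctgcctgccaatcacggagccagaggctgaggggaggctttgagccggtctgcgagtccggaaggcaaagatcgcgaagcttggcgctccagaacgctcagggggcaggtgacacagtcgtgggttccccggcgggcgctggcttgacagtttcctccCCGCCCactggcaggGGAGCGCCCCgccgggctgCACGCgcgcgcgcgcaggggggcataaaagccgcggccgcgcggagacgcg

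In the PTGS2 sequence the TATA box, spelled TATAAA, began 32 bases before the start, and 10.8% of 34943 RefSeq promoters of the same length hold it. The part of the cAMP response element, searched as CGTCA and shorter than the full element, is present in 21.2% of these promoters and began 58 bases before the start. The C/EBP core, searched as TTNNGCAA and present in 9.06%, began 133 bases before it. No kappaB motif, AHR core, EGR1 motif or GC box was found in the PTGS2 sequence. The PTGES sequence had no TATA box, kappaB motif, C/EBP core or part of the cAMP response element. Its EGR1 motif, GCGTGGGCG, began 82 bases before the start and is held by 0.721% of the promoters. The first letters of that motif are also the core of the AHR element, GCGTG, which 32.2% of the promoters hold, and its last letters overlap 1 of 2 GC boxes. The GC box, searched as GGGCGG, is present in 42.5% of the promoters. None of the 7 motifs was found in the PLA2G4A sequence, whose GC content was 38.8%, against 50.4% for PTGS2, 61.2% for PTGES and 70.8% for HPGD. The HPGD sequence held 1 GC box, 1 AHR core and 1 kappaB motif, all read on the other strand, and the kappaB motif is found in 9.95% of the promoters. Among the enzymes whose libraries overlapped, the LTA4H sequence held 3 AHR cores and the PTGES2 sequence held 2, with 1 GC box. PLA2G6 had 1 GC box and no AHR core. The AHR core and the GC box were thus not particular to the 4 genes shown. A match is a description of the letters and not a bound site.

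PTGS2 (Entrez Gene ID 5743), the inducible cyclooxygenase, lies on chr1:186671791-186680922 of hg38 on the minus strand, with 10 exons in its canonical transcript. Its TPM was 20.7, 77.1 and 17.4 in A549-GFP cells and 9.28, 15.4 and 11.2 in A549-TIPARP cells. All A549-TIPARP libraries were below all A549-GFP libraries, and A549-GFP replicate 2 was far above the other 5. The mean log2 TPM was 4.92 ± 1.17 (SD, n = 3) in A549-GFP cells and 3.55 ± 0.37 (SD, n = 3) in A549-TIPARP cells. The difference of -1.37 was of rank 11 among the 57 genes that were more than 2-fold lower, which are 0.432% of the analysed genes. On log2(TPM + 1), the scale of the test, the difference was -1.31 with a standard error of 0.50 and a 95% interval from -2.46 to -0.16 (limma, unadjusted p = 0.0300, adjusted p = 0.994). Without A549-GFP replicate 2 PTGS2 was 1.62-fold lower, a log2 difference of -0.70 (limma adjusted p = 0.432). Of all genes 0.296% were then more than 2-fold lower. Its unadjusted p-value was under 0.05 with 4 of the 6 libraries left out in turn and reached 0.0842 without A549-TIPARP replicate 1. With all libraries and no filter on TPM, the unadjusted p-value of PTGS2 was 0.0523 by limma.

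The antisense gene of PTGS2, PACERR, was close to the floor. It had from 1.26 to 2.18 TPM in A549-GFP cells and at most 1.33 TPM in A549-TIPARP cells. Unlike PTGS2, it had its lowest A549-GFP value in replicate 2. The libraries were stranded, but whether the counting used the strand is not given in the sources used here, so reads of the overlapping parts may be shared. The constitutive cyclooxygenase PTGS1 (chr9:122370530-122395703, plus strand) was at the floor in all 6 libraries, which leaves PTGS2 as the only cyclooxygenase listed above 1 TPM.

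PTGES (Entrez Gene ID 9536), the inducible microsomal prostaglandin E synthase, lies on chr9:129738331-129753042 on the minus strand, with 3 exons. Its TPM was 101, 285 and 123 in A549-GFP cells and 66.9, 85.4 and 74.9 in A549-TIPARP cells. The order of the libraries within A549-TIPARP cells was the same as for PTGS2, and A549-GFP replicate 2 was again the highest. The mean log2 TPM was 7.25 ± 0.79 (SD, n = 3) in A549-GFP cells and 6.24 ± 0.18 (SD, n = 3) in A549-TIPARP cells. The difference of -1.02 was just past 2-fold, of rank 47 among the 57 lower genes. On log2(TPM + 1) it was -1.01 with a standard error of 0.35 and an interval from -1.81 to -0.20 (limma, unadjusted p = 0.0197, adjusted p = 0.994). Without A549-GFP replicate 2 the gene was 1.48-fold lower (limma adjusted p = 0.333), and when the libraries were brought to a common median ratio the log2 difference was -0.95, short of 2-fold.

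PTGES2 (Entrez Gene ID 80142, chr9:128120693-128128462, minus strand), a constitutively expressed prostaglandin E synthase, lies 1.61 Mb from PTGES. It had from 70.9 to 78.7 TPM in A549-GFP cells and from 57.5 to 75.7 TPM in A549-TIPARP cells, and the lines overlapped. The log2 difference on log2(TPM + 1) was -0.14, with an interval from -0.54 to 0.26 (limma adjusted p = 0.994), so a change of more than 2-fold lay outside the interval. PTGES exceeded PTGES2 by 1.42, 3.62 and 1.63 times in A549-GFP cells, and the ratio was 0.884, 1.20 and 1.30 in A549-TIPARP cells. PTGES3, a further prostaglandin E synthase from the pathway list, had from 238 to 399 TPM in the 6 libraries. Its log2 difference was -0.17, or -0.30 with A549-GFP replicate 2 left out, and the lines overlapped. PTGES2-AS1, which is antisense to PTGES2, had from 3.62 to 6.77 TPM. PTGIS, the prostacyclin synthase (chr20:49503874-49568137, minus strand), was at the floor.

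PLA2G4A (Entrez Gene ID 5321), the cytosolic phospholipase A2 that prefers arachidonate, lies on chr1:186828949-186988981 on the plus strand, 148 kb from PTGS2, with 18 exons. Its TPM was 92.1, 109 and 72.5 in A549-GFP cells and 55.6, 54.4 and 62.6 in A549-TIPARP cells. The libraries of the lines were separated by 0.21 on the log2 scale. The mean log2 TPM was 6.49 ± 0.30 (SD, n = 3) in A549-GFP cells and 5.84 ± 0.11 (SD, n = 3) in A549-TIPARP cells. On log2(TPM + 1) the difference was -0.64 with a standard error of 0.20 and an interval from -1.09 to -0.19. Of the 7 enzymes it had the lowest limma p-value, 0.0104 unadjusted and 0.895 adjusted. Without A549-GFP replicate 2 it was 1.42-fold lower, and its unadjusted p-value stayed under 0.05 with each of the 6 libraries left out in turn.

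PLA2G6 (Entrez Gene ID 8398, chr22:38111495-38214778, minus strand), the calcium-independent phospholipase A2, was expressed at a lower level, from 5.17 to 15.3 TPM in A549-GFP cells and from 7.64 to 12.8 TPM in A549-TIPARP cells. The highest and the lowest value were both in A549-GFP libraries, replicates 2 and 1. The difference on log2(TPM + 1) was 0.15 with an interval from -0.70 to 0.995 (limma adjusted p = 0.994). Its direction depended on single libraries. On the deposited log2 scale it was 0.62 with A549-GFP replicate 2 left out and -0.16 with A549-GFP replicate 1 left out, and -0.05 with A549-TIPARP replicate 3 left out. PLA2G4A exceeded PLA2G6 by 7.15 to 17.8 times in A549-GFP cells and by 4.91 to 7.12 times in A549-TIPARP cells.

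HPGD (Entrez Gene ID 3248), which starts the inactivation of prostaglandin E2, lies on chr4:174490175-174523154 on the minus strand, with 7 exons. Its TPM was 51.0, 70.9 and 34.8 in A549-GFP cells and 75.5, 75.7 and 81.2 in A549-TIPARP cells. The A549-TIPARP libraries lay close together, and A549-GFP replicate 2 was the nearest to them, 0.090 below on the log2 scale. The mean log2 TPM was 5.65 ± 0.51 (SD, n = 3) in A549-GFP cells and 6.27 ± 0.06 (SD, n = 3) in A549-TIPARP cells. On log2(TPM + 1) the difference was 0.62 with a standard error of 0.25 and an interval from 0.04 to 1.19 (limma, unadjusted p = 0.0389, adjusted p = 0.994). With A549-GFP replicate 2 left out HPGD was 1.84-fold higher, so that library made the difference of HPGD smaller and those of PTGS2 and PTGES larger. With A549-GFP replicate 3 left out, the lowest library, the log2 difference went from 0.63 to 0.36 (limma unadjusted p = 0.116). Without replicate 2 the unadjusted p-value was 0.00368 and the adjusted one 0.240 by limma, and with each of the other 5 libraries left out the unadjusted p-value was above 0.05.

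The level of HPGD relative to PTGS2, a comparison chosen after the values were seen, was 2.46, 0.920 and 2.00 in A549-GFP cells. The A549-TIPARP libraries had ratios of 8.14, 4.92 and 7.24. The mean ratio on the log scale was 4.0 times higher in A549-TIPARP cells, and 2.99 times higher without A549-GFP replicate 2. These are ratios of transcripts, and neither enzyme activity nor prostaglandin was measured.

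LTA4H (Entrez Gene ID 4048, chr12:96000753-96043520, minus strand), the leukotriene A4 hydrolase, had TPM values of 132, 92.9 and 135 in A549-GFP cells against 129, 141 and 178 in A549-TIPARP cells. It was the one analysed enzyme with its lowest value in A549-GFP replicate 2. The lines overlapped, and the difference on log2(TPM + 1) was 0.32 with an interval from -0.16 to 0.80 (limma adjusted p = 0.994), or 0.15 with A549-GFP replicate 2 left out. ALOX5 (chr10:45374176-45446119, plus strand), which makes the substrate of LTA4H, was at the floor in all 6 libraries.

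**Figure D2:**
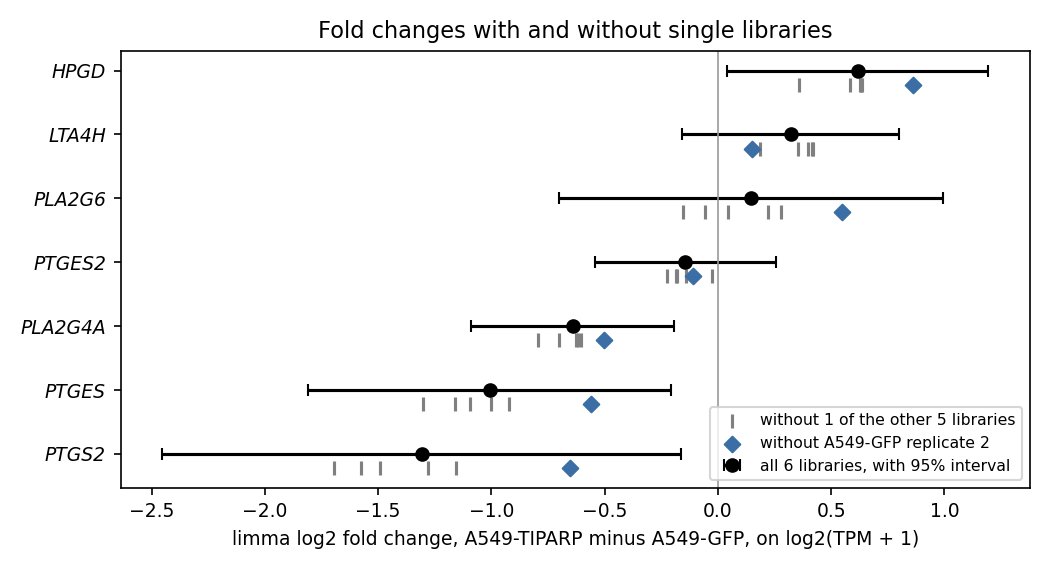
The limma log2 fold change of the 7 enzymes on log2(TPM + 1), A549-TIPARP minus A549-GFP. Black points and bars are the values from all 6 libraries with their 95% intervals, blue diamonds are the values without A549-GFP replicate 2, and grey ticks those without 1 of the other 5 libraries. The diamonds of PTGS2 and PTGES lie nearer to 0 than all of their ticks, and that of HPGD lies farther from 0.

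Within A549-GFP cells the order by geometric mean TPM was PTGES at 152, LTA4H at 118, PLA2G4A at 90.1, PTGES2 at 75.0, HPGD at 50.1, PTGS2 at 30.3 and PLA2G6 at 8.27. Neighbours in this order overlapped between libraries, except PTGS2 with PLA2G6, and PTGES2 with HPGD, whose nearest libraries were both at 70.9 TPM. Within A549-TIPARP cells the order was LTA4H at 148, HPGD at 77.4, PTGES at 75.4, PTGES2 at 67.7, PLA2G4A at 57.4, PTGS2 at 11.7 and PLA2G6 at 9.33. Here LTA4H stood clear of HPGD and PLA2G4A clear of PTGS2, and the other neighbours overlapped. The first place of PTGES in A549-GFP cells rested on replicate 2. Over the other A549-GFP libraries LTA4H was first at 133 and PTGES second at 111, with no overlap, and HPGD was at 42.1. The mean TPM of PTGES and LTA4H over all libraries was at percentiles 91.6 and 92.4 of the analysed genes, that of PTGS2 at 64.0.

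Across the 6 libraries PTGS2 and PTGES varied together, with a Pearson r of 0.98 for log2(TPM + 1), and r was 0.86 over the 5 libraries without A549-GFP replicate 2. PLA2G4A had r = 0.87 with PTGS2 and 0.85 with PTGES, or 0.76 and 0.66 without that library. HPGD had r = -0.08 with PTGS2 and -0.20 with PTGES over 6 libraries, and -0.69 and -0.93 without A549-GFP replicate 2. All points share the libraries, and the difference between the lines is part of each r. Of 12160 other analysed genes above the floor in every library, the 5 most like PTGS2 were TGDS, TMEM68, GHITM, FAHD1 and DPAGT1, with r from 0.994 to 0.998. The 5 most like PTGES were CEBPB, NDUFV2, NFKBIA, ITPRIP and TMEM265, with r from 0.991 to 0.994. All 10 had their highest value in A549-GFP replicate 2, and over the other 5 libraries r was from 0.946 to 0.995. These genes were picked for the highest r over the same 6 libraries. High values thus follow from the choice, also over the other 5 libraries. CEBPB, a C/EBP transcription factor, had TPM values of 175, 350 and 180 in A549-GFP cells and from 126 to 149 TPM in A549-TIPARP cells.

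A list of 23 inflammatory genes, NF-kappaB and IL-1 response genes with receptors of IL-1 and TNF, was set beside the enzymes because 5 of the 7, PTGS2, PTGES, PLA2G4A, PLA2G6 and PTGES2, were highest in A549-GFP replicate 2. Of the 18 analysed, 15 also had their highest value in that library, as did 52% of all analysed genes. It stood above the mean of A549-GFP replicates 1 and 3 by a median of 1.12 for this list, by 2.02 for PTGS2 and by 1.35 for PTGES on the log2 scale, against 0.38 for the median analysed gene. The chemokine CXCL8 had 61.7 TPM there and from 1.16 to 4.37 TPM in the other 5 libraries. CCL20 and CXCL2 were past 2-fold lower in A549-TIPARP cells, and without that library CCL20 had a log2 difference of -0.75 and CXCL2 one of -0.23. In the A549-TIPARP libraries CCL20 had at most 1.01 TPM, close to the floor. The median log2 difference of the list was -0.44 with all libraries and -0.05 without A549-GFP replicate 2, where all analysed genes had medians of -0.07 and 0.05. The part of this library-wide difference in the values of PTGS2 and PTGES was not tested. With it left out, PTGS2 and PTGES were still lower in all 3 A549-TIPARP libraries than in the other A549-GFP libraries, as were 3 of the 18 inflammatory genes, CCL20, NFKBIA and TNFRSF1A. Of all genes 27.7% then had no overlap, 6.42% on the lower side.

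**Figure D3:**
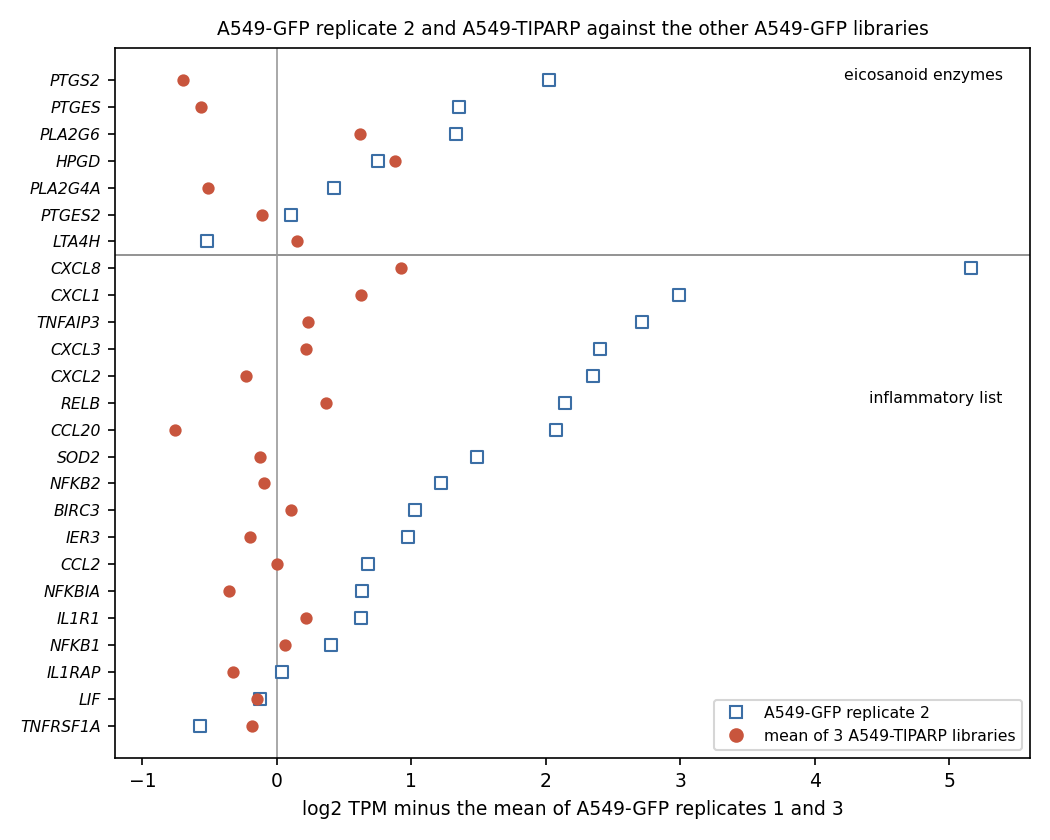
The log2 TPM of A549-GFP replicate 2 (open squares) and the mean of the 3 A549-TIPARP libraries (red points), each minus the mean of A549-GFP replicates 1 and 3, for the 7 enzymes (top) and the 18 inflammatory genes (bottom). For PTGS2 and PTGES the square lies at 2.02 and 1.35 and the red point below 0, while for CXCL8 the square lies at 5.16 and the red point above 0.

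The rest of the pathway was described with a list of 71 genes, of which 36 were analysed and 29 were at 0 in all libraries. None of the 36 was past 2-fold in either direction, where 0.432% of all genes were lower and 1.53% higher. None passed limma after adjustment, and 3 had an unadjusted p-value under 0.05, all of them higher in A549-TIPARP cells, against 3.85% of all genes, 2.97% higher. That count was 6 without A549-GFP replicate 2, against 10.5% of all 13181 genes. It was 5 without A549-GFP replicate 3, against 1085 of all genes. Without A549-TIPARP replicate 1 and without A549-TIPARP replicate 3 it was 1, against 253 and 319 of all genes. With no filter it was 5, against 652 of all entries tested. The median log2 difference of the 36 was -0.06, against -0.07 over all analysed genes. The libraries of the lines did not overlap for 8 of the 36, against 8.91% of all genes. Of these 8, 5 were higher and 3 lower, against 5.36% and 3.54% of all genes. Leaving out a library can only raise such counts, for all genes alike. With A549-GFP replicate 2 left out it was 12, against 27.7% of all genes. With A549-TIPARP replicate 3 left out it was 14. The share of all genes was not computed there, so the 14 cannot be read as a result about the pathway. With A549-GFP replicate 2 left out TBXAS1 and CYP4F12 were past 2-fold higher, as were 2.91% of all genes, and the median of the 36 was 0.19.

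Among the phospholipases and lipases, PLA2G15 and PLA2G16 were higher in all A549-TIPARP libraries. PLA2G16 had TPM values of 51.5, 42.6 and 54.1 in A549-GFP cells against 84.2, 84.1 and 65.1 in A549-TIPARP cells, a log2 difference of 0.65 in the opposite direction to PLA2G4A (limma adjusted p = 0.856). PLA2G15, a lysosomal phospholipase, had from 6.61 to 8.23 TPM in A549-GFP cells and from 10.8 to 12.8 TPM in A549-TIPARP cells, a log2 difference of 0.67 (limma adjusted p = 0.985). MGLL, which frees arachidonate from an endocannabinoid, had a log2 difference of -0.05, or 0.19 with A549-GFP replicate 2 left out. ABCC4, which exports prostaglandins, was the third gene with an unadjusted p-value under 0.05. It had from 15.3 to 25.6 TPM in A549-GFP cells and from 27.0 to 35.1 TPM in A549-TIPARP cells, a log2 difference of 0.56 (limma adjusted p = 0.994) that was 0.35 with A549-GFP replicate 3 left out.

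The terminal synthases with the highest levels were the aldo-keto reductases AKR1C3 and AKR1B1, which make F-type prostaglandins. AKR1C3 had from 2169 to 2314 TPM in the 6 libraries, and the log2 differences were -0.06 for AKR1C3 and -0.05 for AKR1B1. Of the enzymes that act on arachidonate reacylation, MBOAT7 had a log2 difference of -0.13 and ACSL3 one of -0.10. Further along the inactivation route, PTGR1 and PTGR2, which reduce the product of HPGD, had -0.17 and -0.27, and -0.0066 and -0.028 with A549-GFP replicate 2 left out. In the leukotriene branch MGST3 had -0.14 and GGT1 -0.10, and among the epoxide and omega-hydroxylase enzymes EPHX1 had -0.25 and CYP4F11 -0.38. With A549-GFP replicate 2 left out the values were -0.026 for EPHX1, -0.38 for CYP4F11 and -0.21 for MGST3. The sign turned without that library for MBOAT7 at 0.19, AKR1B1 at 0.19 and GGT1 at 0.056, and AKR1C3 was at -0.07 and ACSL3 at -0.04. None of these genes had, with all libraries, an unadjusted p-value under 0.05 by limma. None of the 9 prostanoid receptors had more than 2 TPM in any library, and 7 of them were at 0 in all 6. The leukotriene B4 receptors LTB4R and LTB4R2 were analysed, with log2 differences of -0.06 and -0.25, or 0.40 and 0.20 with A549-GFP replicate 2 left out.

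**Figure D4:**
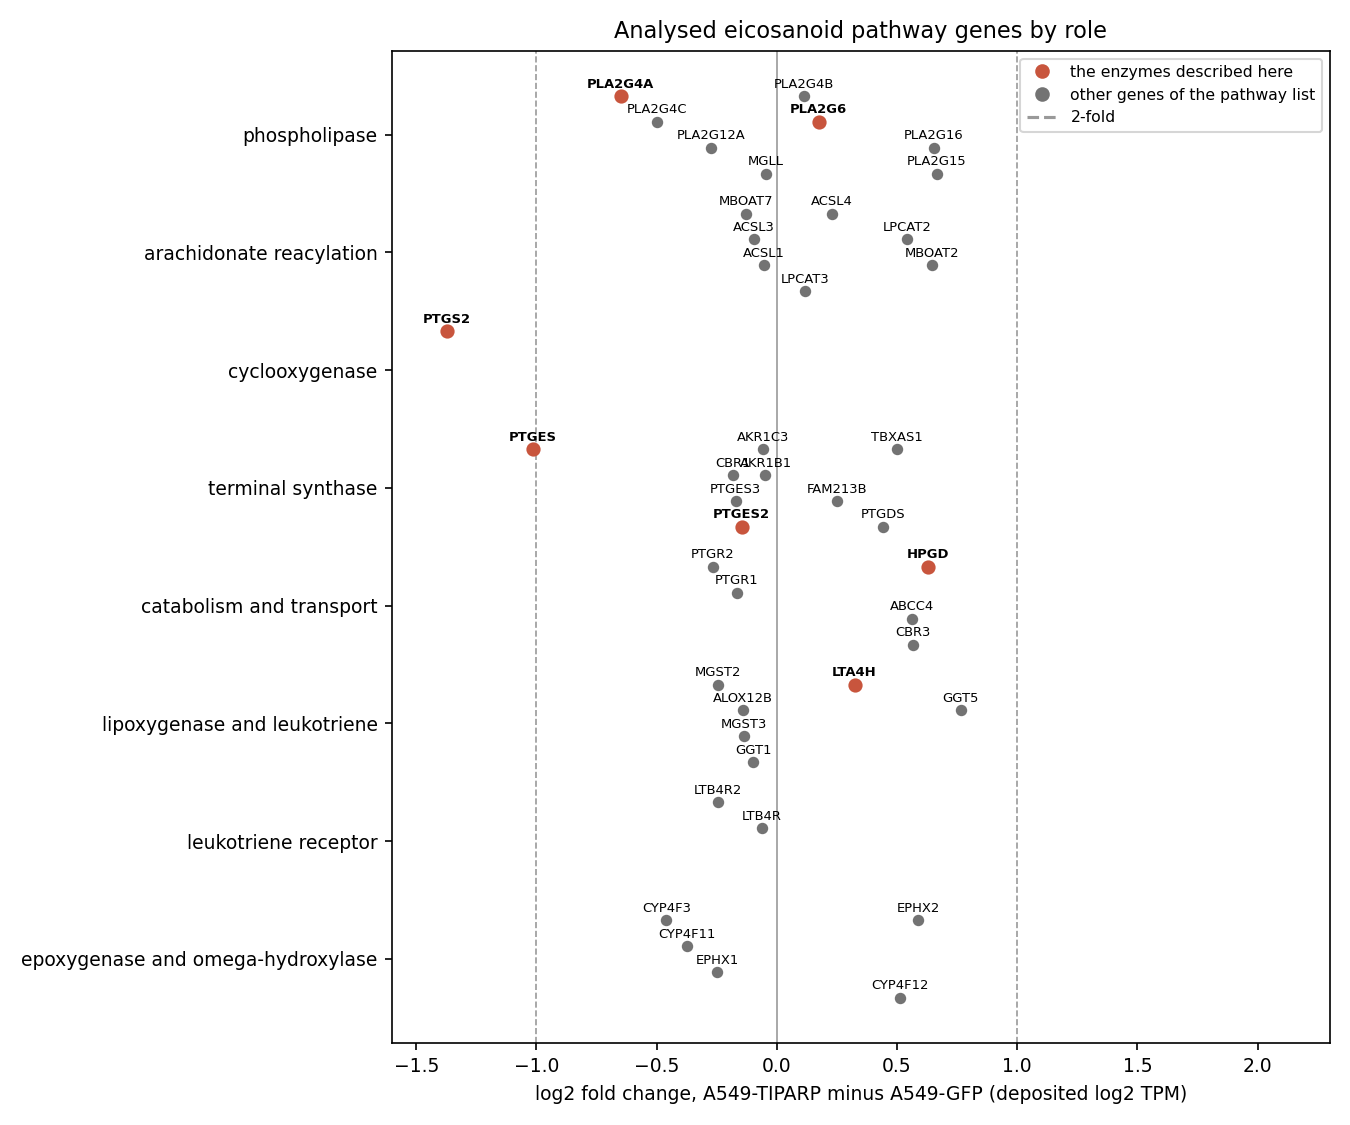
The log2 fold change of deposited log2 TPM for the 43 analysed genes of the pathway, arranged by role, with the 7 enzymes in red and the 36 other genes in grey. Dashed lines mark 2-fold, and PTGS2 and PTGES are the 2 genes beyond them.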

How the data were processed

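The authors prepared stranded mRNA libraries from 3 samples of each line, sequenced them as paired ends on a NovaSeq instrument and aligned them with Strand NGS (default parameters) to hg38 transcripts. Which version and annotation were used, and how reads with several matches were counted, is not given in the sources used here. The deposited values are log2 TPM per gene, 1 table per library, with values below 1 TPM set to 1, and no counts, which leaves the depth of the libraries unknown.

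The line and replicate number of each library came from its title. No 2 libraries held identical values. The filter was the study's own, more than 2 TPM in at least 1 library. Fold changes are differences of mean log2 TPM. A value at the floor understates a difference if it lies in the lower line. For the test, values were turned back to TPM (floor at 1), and limma 3.58.1 (R 4.3.3) was fitted with a variance trend to log2(TPM + 1), a pseudocount of 1, of all analysed genes, with Benjamini-Hochberg adjustment over all of them and a threshold of 0.05. The pseudocount lowers the differences of genes with low TPM. The script was tested on simulated data. The enzymes and gene lists were chosen with earlier results of these data known. Named genes were the 10 enzymes, pathway genes past 2-fold or with an unadjusted p-value under 0.05, the 2 pathway genes with the highest mean TPM in each role, the 5 genes most like PTGS2 and PTGES, and inflammatory genes past 2-fold. Named outside this rule, with their values known, were CXCL8, NFKBIA, TNFRSF1A, TBXAS1, CYP4F12, PTGES3, single markers and the antisense genes. Gene coordinates are from GENCODE 44 on hg38 and promoter sequences from RefSeq on GRCh38.p14, which held an entry for 8 of the 10 enzymes. Count-based tests were not run.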

Additional observations from a re-analysis of the deposited data

How the results depend on the processing

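None of the 7 enzymes and none of the 36 pathway genes reached an adjusted p-value under 0.05 by limma under any of the alternatives run (a pseudocount of 0.1, a pseudocount of 1 in the fold change, no filter, a filter of TPM above 2 in at least 3 libraries, median-ratio rescaling, no variance trend, the replicate block, and each library left out in turn). PTGS2, PTGES, PLA2G4A, PTGES2, LTA4H and HPGD kept their direction in all of them. The log2 fold change of PTGS2 ranged from -1.77 to -0.70 and that of PTGES from -1.31 to -0.57 with each library left out, and the values nearest to 0 came without A549-GFP replicate 2. That of HPGD ranged from 0.36 without A549-GFP replicate 3 to 0.88 without A549-GFP replicate 2, and that of LTA4H from 0.15 to 0.42. With median-ratio rescaling it was -1.31 for PTGS2, -0.95 for PTGES, -0.58 for PLA2G4A and 0.69 for HPGD. The limma adjusted p-values were then 0.732, 0.682, 0.466 and 0.498.

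The number of enzymes more than 2-fold lower was 2. It was 1 with median-ratio rescaling, and 0 to 2 when single libraries were left out, with 0 without A549-GFP replicate 2 and 1 without A549-TIPARP replicate 1. At 1.5-fold 3 enzymes were lower, 1 enzyme and 5 pathway genes were higher in place of 0, and of all 13181 genes 398 were lower and 751 higher. With A549-GFP replicate 2 also left out, a setting added after seeing the data, 1 enzyme was past 1.5-fold lower, and 2 enzymes and 5 pathway genes were past it higher. With each library left out from 0 to 2 pathway genes were more than 2-fold higher, the 2 being TBXAS1 and CYP4F12 without A549-GFP replicate 2. The number of enzymes without overlap between the lines was 4 or 5 throughout. The number of all analysed genes more than 2-fold lower, 57, was 20 with a pseudocount of 1 in the fold change, 37 with rescaling, 143 with arithmetic means, and 39 to 200 when single libraries were left out, and the 202 more than 2-fold higher were 78 with that pseudocount and up to 383 without A549-GFP replicate 2. The 508 genes with an unadjusted p-value under 0.05 were 786 with rescaling and 253 to 1379 when single libraries were left out. The planned edgeR and DESeq2 fits need counts and were not run, and how depth limits these values is unknown.

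With a replicate block by experiment number the unadjusted p-values were 0.0117 for PTGS2, 0.0120 for PTGES, 0.0291 for PLA2G4A and 0.0579 for HPGD, the adjusted p-value was 0.999 for each of them, and 1 gene in place of 2 was called over all genes. The deviations of same-numbered libraries from the mean of their line correlated across genes with r from -0.486 to 0.415, so the numbers were not taken as pairs.

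Differences near 0 changed sign. With rescaling AKR1B1 became 0.018, AKR1C3 0.0087, LTB4R 0.0041 and MGLL 0.019. With each library left out the log2 fold change ranged from -0.16 to 0.62 for PLA2G6, from -0.29 to 0.041 for ACSL3, from -0.20 to 0.19 for AKR1B1, from -0.20 to 0.056 for GGT1, from -0.30 to 0.40 for LTB4R, from -0.56 to 0.20 for LTB4R2, from -0.31 to 0.19 for MBOAT7 and from -0.20 to 0.19 for MGLL. The cause of these changes was not tested.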
